A study of Mus musculus with 18 samples.

Results

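The INK4 genes, the p57 gene and a CDK phosphatase gene were followed through liver, kidney and lung: Cdkn2a, Cdkn2b, Cdkn2c and Cdkn2d, which encode the INK4 proteins, Cdkn1c, which encodes p57 (KIP2), and Cdkn3, which encodes a CDK-associated phosphatase. They were taken from the count table by symbol, as brakes of the cell cycle and markers of senescence other than p21 and p27, and made up 6 of its 24062 genes. All 6 symbols had a row in the table. RNA had been sequenced from whole tissue of C57BL/6 mice aged 4 months. The CCNE-TA mice had both a tet-inducible Ccne1 and rtTA, the activator that switches it on, while the TA controls had rtTA and no inducible Ccne1. Both genotypes received doxycycline, the drug that switches on rtTA-dependent transgenes, from 3 weeks of age, so drug and activator are common to the groups. The promoter that drives rtTA is not given in the sources used here. Each of the 6 groups held 3 libraries, 18 in all.

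INK4 proteins bind CDK4 and CDK6 and keep them from pairing with D cyclins, which holds RB in its growth-restraining state. p57 belongs to the CIP/KIP family, which binds cyclin-CDK complexes including cyclin E with CDK2, and its gene is imprinted and expressed mainly from the maternal copy. Cdkn3 takes a phosphate off CDK2 and CDK1, and its transcript is known to be made mostly by dividing cells. Cyclin E1, the product of the transgene, works with CDK2 downstream of the INK4 proteins.

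Ccne1 separated the genotypes as labelled. Its level in CPM (counts scaled to the library total with TMM factors, within a tissue) was 287 ± 71.9 in CCNE-TA liver against 2.47 ± 0.386 in TA liver (SD, n = 3 each). In kidney it was 718 ± 211 against 2.06 ± 0.505 CPM, and in lung 88.8 ± 32.1 against 3.59 ± 2.49 CPM. Total counts per library ran from 26214869 to 61954486 in liver, from 20352770 to 43202066 in kidney and from 41597623 to 155323865 in lung. Marker genes matched the tissue labels: the summed level of 7 hepatocyte genes was 92374 to 170556 CPM in the livers, that of 7 proximal tubule genes 18159 to 75722 CPM in the kidneys, and that of 7 lung epithelium genes 48889 to 126602 CPM in the lungs. Xist, the transcript of the inactive X chromosome, was above 100 CPM in 2 of 3 CCNE-TA and 1 of 3 TA livers, and in 2 of 3 libraries of each genotype in kidney and lung. The labels do not say which libraries come from one animal, and p-values measure only the spread between these libraries.

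In liver the INK4 gene Cdkn2c, the p57 gene Cdkn1c and the phosphatase gene Cdkn3 were higher in all 3 CCNE-TA libraries than in any of the TA libraries and passed the test. In edgeR's quasi-likelihood test with Benjamini-Hochberg adjustment over all tested genes, the threshold was an adjusted p of 0.05. Of the 6 genes, 3 were called higher, Cdkn2d was tested and not called, and Cdkn2a and Cdkn2b had too few counts to be tested. Across all genes tested in liver, 28.5% were called, 13.7% higher and 14.8% lower. The called share of the transcriptome was therefore large in this tissue, and 3 called of 4 tested is to be read against it. The CCNE-TA livers all lay above the TA livers for the same 3 of the 4 tested genes, against 23.2% of all tested genes. The filter on low counts shaped both counts. Cdkn3 came through it because of the CCNE-TA libraries, while Cdkn2a and Cdkn2b did not come through. Both counts are therefore descriptions, and no conclusion about the 6 genes as a group is drawn from them. Cdkn2a, which was not tested, was also higher without overlap.

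**Figure D1:**
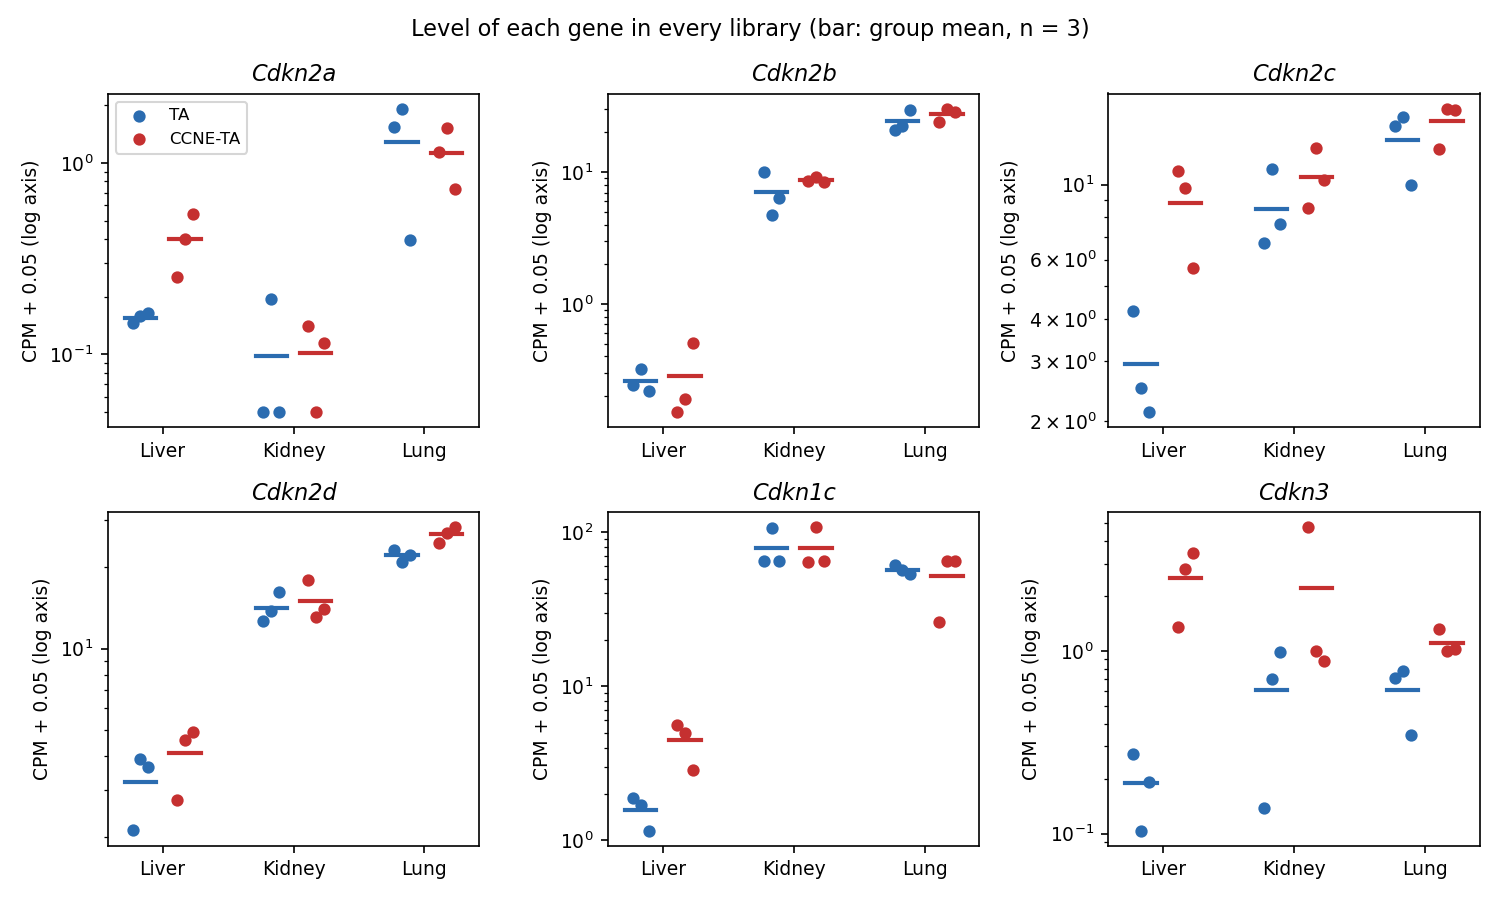
Level of each of the 6 genes in every library (points) with the group mean (bar, n = 3), by tissue, for TA (blue) and CCNE-TA (red); the vertical axis is CPM plus 0.05 on a log axis. In liver the CCNE-TA points of Cdkn2c (5.61 to 10.9 CPM), Cdkn1c (2.82 to 5.53 CPM) and Cdkn3 (1.29 to 3.37 CPM) lie above all TA points of the same gene.

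Cdkn3 (chromosome 14, 46760541 to 46771669 of mm10, plus strand) had the largest fold change in liver of the 4 members tested. It stood at 1.29, 2.74 and 3.37 CPM in CCNE-TA livers 1, 2 and 3 and at 0.223, 0.0540 and 0.142 CPM in TA livers 1, 2 and 3. The TA livers were thus close to the limit of detection, with 14, 2 and 5 counts, and all 3 CCNE-TA livers lay above them, with 51, 117 and 110 counts. The log2 fold change was 4.05 ± 0.61 (SE), with an edgeR adjusted p of 0.00513. The gene came through the filter on low counts because of the CCNE-TA libraries. Without that filter its adjusted p was 0.00192 in edgeR.

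The RefSeq promoter window of Cdkn3, from 250 bases before to 50 after the start, is shown because this gene carried the largest change and can be set beside Cdkn2c, which was called in the same tissue. Capitals mark CCAAT boxes on either strand (CCAAT or ATTGG) and the cell cycle homology element, CHR (TTTGAA, here TTCAAA on the other strand). The window lies on the plus strand at chr14:46760291-46760590 of GRCm38.p6.
Cdkn3: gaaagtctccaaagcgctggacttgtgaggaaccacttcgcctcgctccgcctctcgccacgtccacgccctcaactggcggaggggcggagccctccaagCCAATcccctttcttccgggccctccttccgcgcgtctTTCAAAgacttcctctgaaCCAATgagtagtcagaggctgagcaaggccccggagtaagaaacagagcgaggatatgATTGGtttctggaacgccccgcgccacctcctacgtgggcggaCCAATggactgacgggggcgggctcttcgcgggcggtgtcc
It held 4 CCAAT boxes, at positions -149, -92, -34 and 10 from the start, and 1 CHR at -111, none of them overlapping. Of 32851 mouse promoter windows of this length, 37.4% held a CCAAT and 17.9% a CHR. At least 2 CCAAT boxes with a CHR occurred in 686 windows or 2.09%, and at least 4 with a CHR in 64 windows or 0.19%; both combinations hold for Cdkn3 and were counted after its window had been read. E2F letters (TTTCCCGC, TTTCGCGC, TTTGCCGC or TTTGGCGC, both strands), present in 2.3% of windows, had no match there. These matches are descriptions of the sequence only.

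Cdkn2c (chromosome 4, 109660876 to 109667189, minus strand), the gene for p18 INK4C, was the one INK4 member called in liver. Its levels were 10.9, 9.73 and 5.61 CPM in CCNE-TA livers 1, 2 and 3 and 4.19, 2.46 and 2.08 CPM in the TA livers. The groups did not overlap, and the lowest CCNE-TA value, in library 3, was nearest to the highest TA value, in library 1. The log2 fold change was 1.58 ± 0.36 (SE) with an edgeR adjusted p of 0.0165.

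RefSeq lists a pair of starts for Cdkn2c, and both windows are shown to set them beside that of Cdkn3. They lie on the minus strand at chr4:109666707-109667006 and chr4:109665323-109665622 of GRCm38.p6 and are written 5′ to 3′ along the gene, with capitals as above.
Cdkn2c, upstream start: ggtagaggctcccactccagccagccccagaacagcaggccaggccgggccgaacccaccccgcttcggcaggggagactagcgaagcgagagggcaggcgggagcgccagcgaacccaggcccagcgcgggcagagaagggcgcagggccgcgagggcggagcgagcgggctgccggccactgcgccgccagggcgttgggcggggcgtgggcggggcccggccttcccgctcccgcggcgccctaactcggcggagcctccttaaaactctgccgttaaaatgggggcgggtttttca
Cdkn2c, downstream start: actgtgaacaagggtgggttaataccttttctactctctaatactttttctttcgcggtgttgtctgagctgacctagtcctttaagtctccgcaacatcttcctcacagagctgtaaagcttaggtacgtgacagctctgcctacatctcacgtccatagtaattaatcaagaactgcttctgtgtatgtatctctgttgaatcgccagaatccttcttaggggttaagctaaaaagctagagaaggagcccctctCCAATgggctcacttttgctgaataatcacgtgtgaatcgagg
The upstream window held none of the 3 motifs searched, and the downstream one held 1 CCAAT at position 8. The windows of Cdkn3 and Cdkn2c, both called in liver, thus differed in motif content. Cdkn1c, called as well, is named only.

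Cdkn1c (chromosome 7, 143458339 to 143461050, minus strand) was low in liver but higher in CCNE-TA. It measured 5.53, 4.95 and 2.82 CPM in CCNE-TA livers 1, 2 and 3 against 1.85, 1.65 and 1.11 CPM in the TA livers. Here too library 3 was the lowest of the CCNE-TA livers, and the groups did not overlap. The log2 fold change was 1.53 ± 0.36 (SE) with an edgeR adjusted p of 0.0185. The call was lost with length and GC correction, where the log2 fold change was 0.9995 (adjusted p = 0.0807), and with that and the replicate block, where it was 0.96 (adjusted p = 0.0605). The antisense gene Gm44732 covers 30.7% of its exon bases, and the libraries do not mark the strand, so reads of the pair cannot be told apart.

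Cdkn2d (chromosome 9, 21288410 to 21291407, minus strand), which encodes p19 INK4D, had the highest mean level per length of the INK4 genes in TA liver. It ranged from 2.69 to 4.88 CPM in CCNE-TA livers and from 2.07 to 3.84 CPM in TA livers, and the groups overlapped. The log2 fold change was 0.36 ± 0.35 (SE), with an edgeR adjusted p of 0.472. Length and GC correction turned its direction (-0.20).

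Cdkn2a (chromosome 4, 89274471 to 89294653, minus strand) has a start for p19ARF and one for p16INK4a, which counts per symbol cannot separate. It had 8, 15 and 16 counts in CCNE-TA livers 1, 2 and 3 (0.203, 0.352 and 0.491 CPM) and 6, 4 and 4 counts in the TA livers (0.0955, 0.108 and 0.114 CPM). The groups did not overlap, and the two-sided exact permutation p was 0.1, the smallest that 3 libraries against 3 allow. In a fit of all 18 libraries, where more genes pass the filter, its log2 fold change was 1.69 with an edgeR adjusted p of 0.158.

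Cdkn2b, the gene for p15 INK4B and the neighbour of Cdkn2a (chromosome 4, 89306299 to 89311039, minus strand), had 4, 6 and 15 counts in CCNE-TA livers and 12, 10 and 6 in TA livers. Its levels of 0.102, 0.141 and 0.460 CPM against 0.191, 0.270 and 0.171 CPM overlapped. In the fit of all 18 libraries its log2 fold change was 0.086 with an edgeR adjusted p of 0.925.

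Several library features moved with the liver levels. Within each genotype, Cdkn2c and Cdkn1c were highest in the libraries with Xist above 100 CPM, which were CCNE-TA 1, CCNE-TA 2 and TA 1. Among the 3 livers with low Xist, CCNE-TA 3 had 5.61 CPM of Cdkn2c and 2.82 CPM of Cdkn1c, above TA 2 and TA 3 in both genes. With Xist as a covariate in edgeR, the adjusted p was 0.0363 for Cdkn2c and 0.0818 for Cdkn1c. When TA 2 and TA 3 were given a term of their own, which leaves TA 1 as the reference, none of the 6 genes was called. Over all genes 259 were called in that fit, against 3942 without the term. The log2 fold changes were then 3.45 for Cdkn3, 1.07 for Cdkn2c and 1.26 for Cdkn1c, with edgeR adjusted p of 0.0836, 0.220 and 0.216.

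Markers of other cell types also differed in liver. All 6 bile duct markers (Spp1, Cldn7, Epcam, Krt19, Krt7 and Sox9) rose in edgeR, and their summed level was 231 to 337 CPM in CCNE-TA against 46.8 to 50.7 CPM in TA, with none at 0. Most of that sum was Spp1, at 255 ± 51.5 CPM in CCNE-TA against 42.7 ± 2.03 CPM in TA (SD, n = 3). Of 9 endothelial markers 5 fell, with a sum of 107 to 122 CPM against 161 to 196 CPM. The sum of 9 T and NK cell markers was 12.9 to 15.9 CPM against 4.78 to 9.85 CPM, with 1 of them, Nkg7, called higher and none at 0. The sum of 7 proximal tubule markers was 49.8 to 52.8 CPM against 63.8 to 95.3 CPM. Of the 6 tested, Aqp1 fell and 0 rose, and their median log2 fold change was 1.75, opposite in direction to the sum. In TA 2 and TA 3, 4 and 3 of the 7 markers were at 0. Pancreas markers summed to 74.75 and 25.02 CPM in TA 1 and TA 2 and to 0.863 to 1.22 CPM in the other 4 livers, with Prss1 and Amy2a5 at 0. The part of these cell types in the Cdkn2c and Cdkn1c levels was not tested, and in bulk tissue more cells of a type cannot be told apart from more RNA per cell.

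Leaving out a liver library changed calls of 2 of the genes. Without CCNE-TA 1, TA 2 or TA 3 the edgeR adjusted p of Cdkn2c was 0.0651, 0.0621 and 0.0667, and that of Cdkn1c 0.0748, 0.0568 and 0.0727. Cdkn3 was called with each of the 6 libraries left out. The plot of liver fold changes by setting gives all of these.

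**Figure D2:**
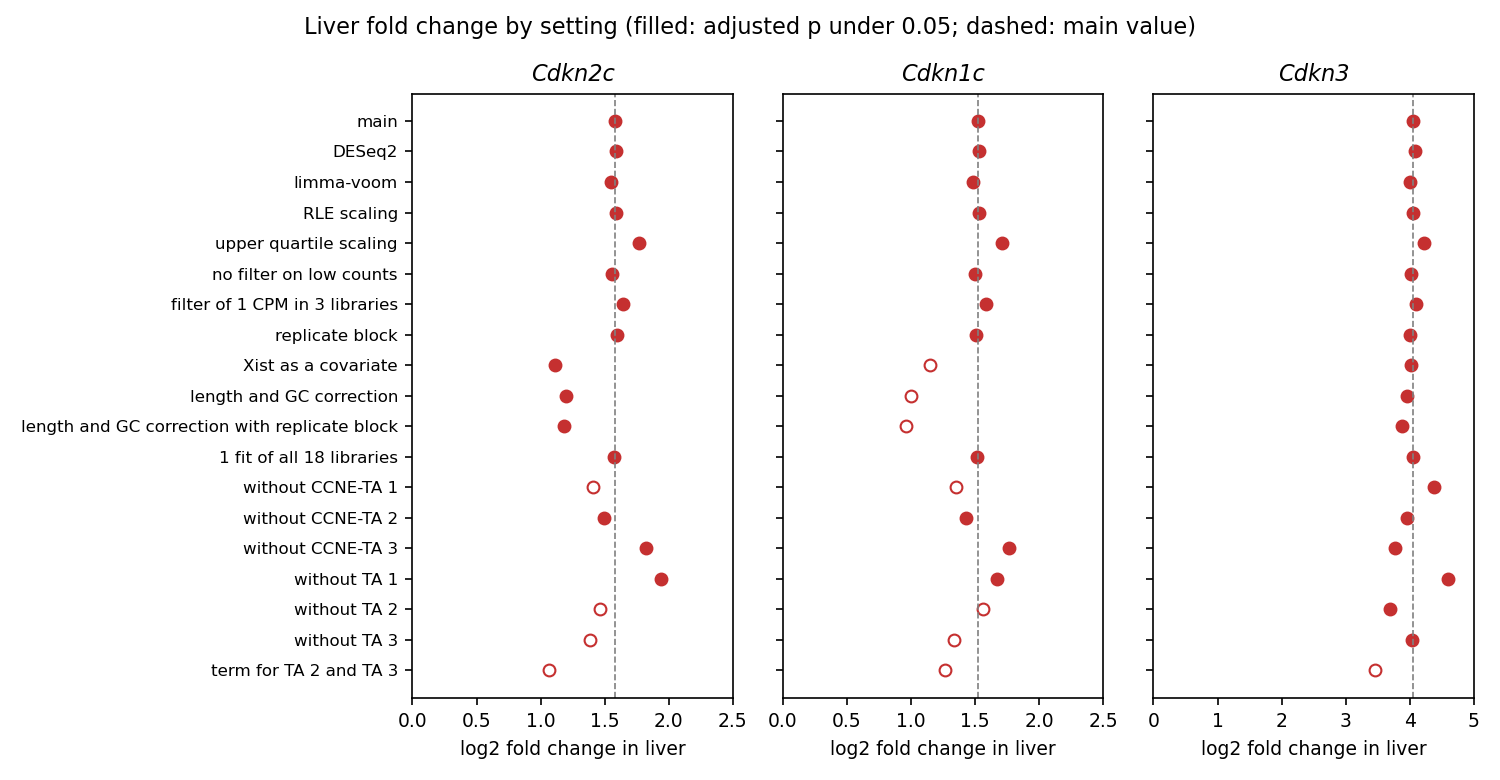
Log2 fold change in liver of the 3 called genes under the main edgeR fit and each alternative (rows); points are filled where the adjusted p is under 0.05, and the dashed line is the main value. Cdkn3 is filled in 17 of 18 alternatives, Cdkn2c in 14 and Cdkn1c in 11, with values of 3.45 to 4.60, 1.07 to 1.94 and 0.96 to 1.76.

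In kidney none of the 5 tested genes was called by edgeR, where 0.0131% of all tested genes were called. No member was higher in CCNE-TA kidneys without overlap, against 3.04% of all tested genes. At an unadjusted p of 0.05 edgeR and limma-voom also gave 0, and DESeq2 gave 1, Cdkn3, with 0 after adjustment in all 3 tools. Ccne1 and Cdkn1a were higher in all CCNE-TA kidneys than in the TA kidneys, and Ccne1 passed the test. Cdkn1a, the p21 gene, had a log2 fold change of 2.99 ± 0.41 (SE) and an edgeR adjusted p of 0.156.

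Cdkn3 in kidney measured 4.70, 0.954 and 0.833 CPM in CCNE-TA libraries 1, 2 and 3 and 0.0888, 0.651 and 0.940 CPM in TA libraries 1, 2 and 3. CCNE-TA 1 stood far above the rest, TA 1 far below, and the remaining 4 libraries lay close together. The log2 fold change was 1.91 ± 0.88 (SE) with an edgeR adjusted p of 0.999, and 0.67 without CCNE-TA 1. Mki67, a marker of cycling cells, was also highest in CCNE-TA 1, at 41.1 CPM against 15.4 and 20.3 CPM in the other CCNE-TA kidneys.

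Cdkn1c in kidney varied between libraries of both genotypes, and the ranges of the genotypes overlapped. It was at 63.6, 108 and 65.0 CPM in CCNE-TA 1, 2 and 3 and at 64.8, 107 and 65.3 CPM in TA 1, 2 and 3. Both libraries numbered 2 stood apart, and the log2 fold change was -0.0049 ± 0.28 (SE). The same pair had the highest sum of 8 podocyte markers, 804 and 757 CPM against 450 to 559 CPM in the other 4 kidneys, with none of the markers at 0. Podocytes are the filtering cells of the glomerulus and are known to express p57 in the mature kidney. Whether their share of the tissue accounts for the levels was not tested.

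The INK4 genes tested in kidney overlapped between the groups. Cdkn2b ranged from 8.36 to 9.17 CPM in CCNE-TA kidneys and from 4.72 to 9.95 CPM in TA kidneys, with a log2 fold change of 0.32 ± 0.30 (SE). Cdkn2c ranged from 8.49 to 12.8 against 6.66 to 11.1 CPM (0.31 ± 0.27), and Cdkn2d from 13.0 to 17.9 against 12.6 to 16.2 CPM (0.080 ± 0.21). None of the 3 genes reached the threshold, and Cdkn2b varied more among the TA than among the CCNE-TA kidneys. Kidneys of the same number deviated together, although the labels do not state a pairing by number. Xist was above 100 CPM in kidneys 1 and 2 of each genotype and low in kidney 3. The part of sex in the joint deviation was not tested. Grouped by number, Cdkn2c was higher in the CCNE-TA kidney of all 3 pairs (8.49 against 6.66, 12.8 against 11.1 and 10.3 against 7.61 CPM). The share of all genes that do so was not computed, so no conclusion is drawn from this count. With the number as a block the log2 fold change of Cdkn2c was 0.33, with an edgeR adjusted p of 0.945. Cdkn2b and Cdkn2d went both ways within the pairs. Cdkn2a had 2, 0 and 2 counts in CCNE-TA kidneys and 0, 6 and 0 in TA kidneys, at or under the level that 3 counts per library allow in 5 of 6, so no fold change is given.

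In lung none of the 6 genes was called by edgeR, against a background of 0.00594% of tested genes. At an unadjusted p of 0.05 edgeR and limma-voom gave 0 and DESeq2 gave 1, Cdkn2d, and none passed after adjustment. For Ccne1 itself the lung edgeR adjusted p was 0.897 at a log2 fold change of 4.61 ± 0.67 (SE), with all 3 CCNE-TA lungs above all TA lungs.

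Cdkn2d and Cdkn3 were higher in all CCNE-TA lungs than in all TA lungs without passing the test. Cdkn2d measured 24.6, 26.8 and 28.1 CPM in CCNE-TA lungs against 23.2, 20.9 and 22.1 CPM in TA lungs, a log2 difference of 0.26 ± 0.12 (SE). Cdkn3 measured 1.26, 0.944 and 0.973 CPM against 0.662, 0.729 and 0.296 CPM, a log2 difference of 0.90 ± 0.42 (SE). Among all genes tested in lung 3.3% were higher with no overlap. The two-sided exact permutation p was 0.1 for both genes, the smallest possible.

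Cdkn1c in lung was lowest in CCNE-TA 1, at 26.1 CPM, while the other CCNE-TA lungs had 65.3 and 65.1 CPM and the TA lungs 61.3, 56.4 and 53.5 CPM. That library also had the smallest sum of lung epithelium markers, 48889 CPM against 78416 to 126602 CPM in the others. Its sum of neutrophil markers was 456 CPM, against 15.4 to 75.6 CPM elsewhere in lung. The log2 fold change of Cdkn1c was -0.13 ± 0.34 (SE) with all lungs and 0.19 without CCNE-TA 1, so its direction rested on that library.

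The other lung levels overlapped between the groups. Cdkn2b reached 30.3 CPM in CCNE-TA lungs and 29.7 CPM in TA lungs, with means of 27.5 ± 3.28 and 24.4 ± 4.68 CPM (SD, n = 3). Cdkn2c ranged from 12.7 to 16.7 against 9.90 to 15.8 CPM. Cdkn2a measured 1.08, 1.46 and 0.683 CPM in CCNE-TA lungs against 1.50, 1.87 and 0.345 CPM in TA lungs. Library 3 was the lowest of each genotype for Cdkn2a. Its log2 fold change was -0.21 ± 0.64 (SE).

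**Figure D3:**
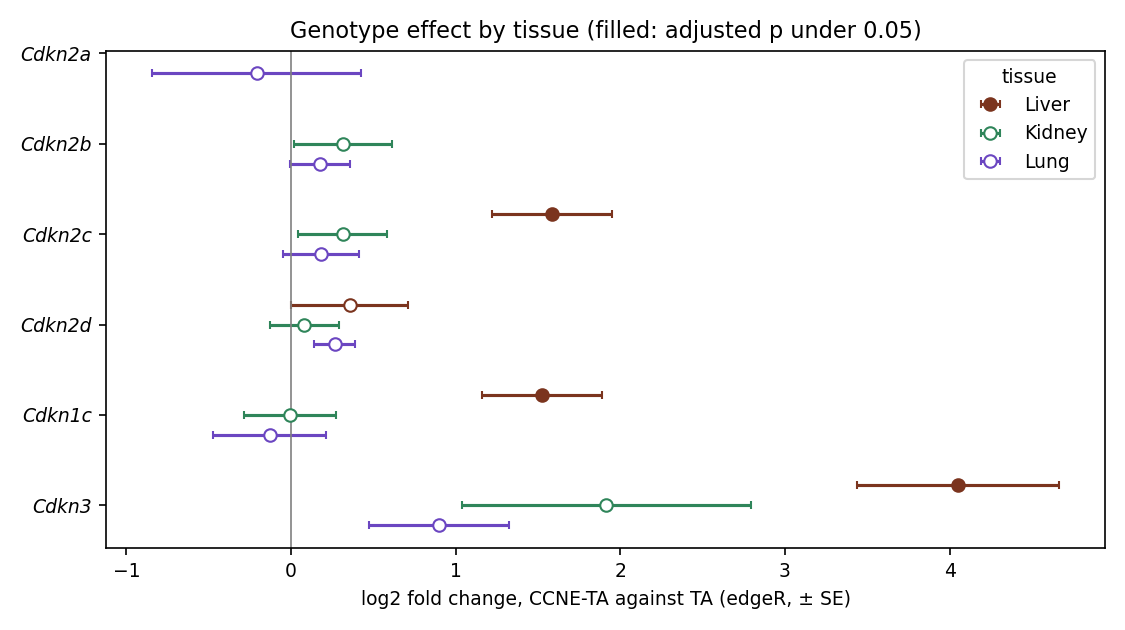
Log2 fold change of CCNE-TA against TA with its standard error for each gene in each tissue where edgeR tested it; filled points have an adjusted p under 0.05. The 3 filled points are Cdkn2c (1.58), Cdkn1c (1.53) and Cdkn3 (4.05) in liver, and kidney and lung points are hollow.

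A call in liver and none in kidney or lung does not show that the genotype effects differ, so the difference itself was tested in 1 edgeR fit of all 18 libraries. For liver minus lung, 1 of 6 genes was called, Cdkn1c, with a log2 difference of 1.63 ± 0.51 (SE) and an adjusted p of 0.0470; of all genes, 12.7% were called and 6.23% were called higher. Over 26 alternatives its adjusted p ran from 0.0133 to 0.169 and it was called in 10. Cdkn2c differed by 1.38 ± 0.46 (adjusted p = 0.0594) and Cdkn3 by 3.15 ± 1.08 (adjusted p = 0.0642), which did not pass. Ccne1 itself differed by 2.22 ± 0.62 in the same edgeR fit (adjusted p = 0.0316).

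For liver minus kidney, 0 of 6 genes were called by edgeR, where 9.52% of all genes were. At an unadjusted p of 0.05 edgeR gave 2, Cdkn2c and Cdkn1c, while DESeq2 called 2 after adjustment and 3 before, and limma-voom 0 and 1. The log2 differences were 1.52 ± 0.51 for Cdkn1c, 1.27 ± 0.47 for Cdkn2c and 2.15 ± 1.09 for Cdkn3, with edgeR adjusted p of 0.0666, 0.0880 and 0.206. For kidney minus lung 0 of 6 were called, and 0 at an unadjusted p of 0.05 in edgeR, DESeq2 and limma-voom, against 0.00583% of all genes.

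In the TA controls, liver was lower than lung for 5 of the 6 genes and lower than kidney for 3. Levels between genes are given here per length, as RPKM (CPM per kilobase of all exons of the gene merged, on scaling factors common to all 18 libraries). Cdkn1c was the most abundant of the 6 in kidney, at 26.7, 44.5 and 26.9 RPKM, and in lung, at 20.6, 19.1 and 17.7 RPKM. In liver it was at 1.60, 1.41 and 0.930 RPKM, below Cdkn2d at 2.32, 4.24 and 3.89 RPKM. Cdkn2b was at 10.4, 11.1 and 14.5 RPKM in lung, 6.01, 2.88 and 3.82 RPKM in kidney, and 0.242, 0.338 and 0.210 RPKM in liver. These groups did not overlap, and lung, kidney and liver followed each other in that order.

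**Figure D4:**
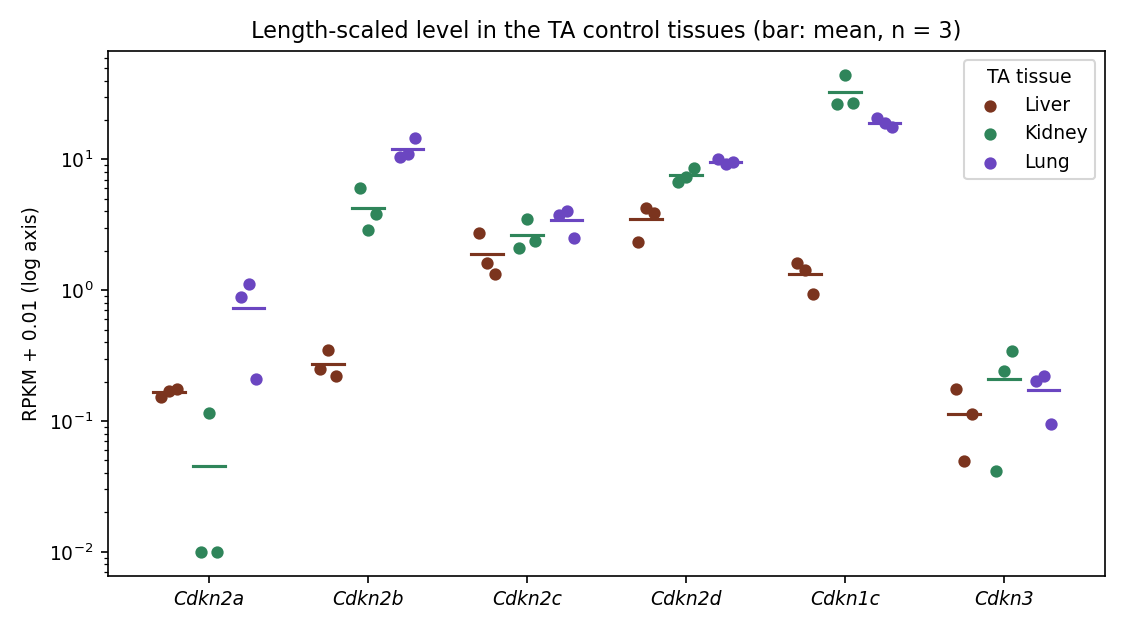
Level of each gene in the TA control tissues as RPKM plus 0.01 on a log axis, with a point per library and a bar at the mean (n = 3). Liver lies below kidney and lung for Cdkn2b (0.210 to 0.338 RPKM) and Cdkn1c (0.930 to 1.60 RPKM), while Cdkn3 is at 0.334 RPKM or less in all 3 tissues.

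The 18-library edgeR fit called 3 of 6 genes lower in TA liver than in TA kidney, where 62.2% of all genes were called in either direction and 33.6% were lower. They were Cdkn1c (log2 difference -4.63, adjusted p = 8.42e-08), Cdkn2b (-4.00, adjusted p = 5.89e-07) and Cdkn2d (-1.12, adjusted p = 0.000939). Between TA liver and TA lung 5 of 6 were lower in liver, against 68.5% of all genes called and 35.8% called lower; Cdkn3 was not called. The log2 differences were -5.51 for Cdkn2b, -3.86 for Cdkn1c, -2.21 for Cdkn2a, -1.46 for Cdkn2d and -0.86 for Cdkn2c. Cdkn2a (adjusted p = 0.0329) was called in 20 of 27 alternatives and Cdkn2c (adjusted p = 0.0292) in 23. Cdkn2a was not called with Xist as a covariate (-1.85, adjusted p = 0.0907), with the replicate block, or without any 1 of TA livers 1, 2 and 3 and TA lungs 1 and 2. Cdkn2c was not called without TA liver 2 or 3 or TA lung 1 or 2.

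Between TA kidney and TA lung 2 of 6 were lower in kidney, Cdkn2a (adjusted p = 0.00228) and Cdkn2b (-1.50, adjusted p = 0.00168), against 57.3% of all genes called and 29.6% called lower. No fold is given for Cdkn2a, which had 0, 6 and 0 counts in the TA kidneys. Cdkn1c was higher in kidney by 0.77 on the log2 scale, with an edgeR adjusted p of 0.0673, and 0.0151 in a fit of the 9 TA libraries alone.

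Cdkn2d and Cdkn3 were not called between kidney and lung. Cdkn2d was at 6.70, 7.37 and 8.64 RPKM in TA kidney and 10.1, 9.16 and 9.49 RPKM in TA lung. Cdkn3 had means of 0.103 ± 0.0629, 0.199 ± 0.154 and 0.163 ± 0.0684 RPKM (SD, n = 3) in TA liver, kidney and lung, and no pair of tissues was called. Cdkn2c was at 1.89 ± 0.755, 2.65 ± 0.744 and 3.44 ± 0.835 RPKM in the same order, and liver and kidney, like kidney and lung, were not called apart.

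The make-up of the INK4 pool was computed as the share of each gene in the summed RPKM of the 4 INK4 genes. In TA lung Cdkn2b made up 41.3% to 54.3% and Cdkn2d 35.6% to 40.2%. In TA kidney Cdkn2d made up 45.3% to 58.2%, and in TA liver 42.5% to 69.6%. The share of Cdkn2c in liver was 67.6%, 52.4% and 35.2% in CCNE-TA 1, 2 and 3 and 50.4%, 25.2% and 23.6% in the TA livers. These ranges overlapped, since TA 1 lay above CCNE-TA 3. Cdkn2a stayed at 7.05% or less in all 6 livers.

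The genes whose levels were most like each member were found over the 18 libraries after the mean of each tissue had been taken out, among 12387 genes. The correlations are descriptions, and the points share tissue, genotype and library. For Cdkn3 they were Knstrn (Pearson r = 0.947, Spearman rho = 0.905), Gtse1 (0.929, 0.961) and Ccna2 (0.925, 0.944), of which Ccna2 encodes cyclin A2. For Cdkn2c they were Cd9 (0.929, 0.913), Tspan8 (0.927, 0.917) and Tbcc (0.902, 0.856), and for Cdkn1c Cd9 (0.923, 0.924), Kank3 (0.902, 0.843) and Hspb11 (0.900, 0.917). Cd9 and Tspan8 encode tetraspanins of the cell surface, and Cd9 was the nearest gene to both Cdkn2c and Cdkn1c. Between the members, Cdkn2c and Cdkn1c had the highest correlation (r = 0.875), followed by Cdkn2c and Cdkn3 (0.694).

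The remaining members had weaker nearest genes. They were Dpp7, Xrcc3 and Mgp for Cdkn2a (r = 0.751 to 0.783), Zfp37, Tfeb and Sipa1l2 for Cdkn2b (0.813 to 0.820), and Cacna2d1, Lca5 and Spata24 for Cdkn2d (0.770 to 0.821).

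**Figure D5:**
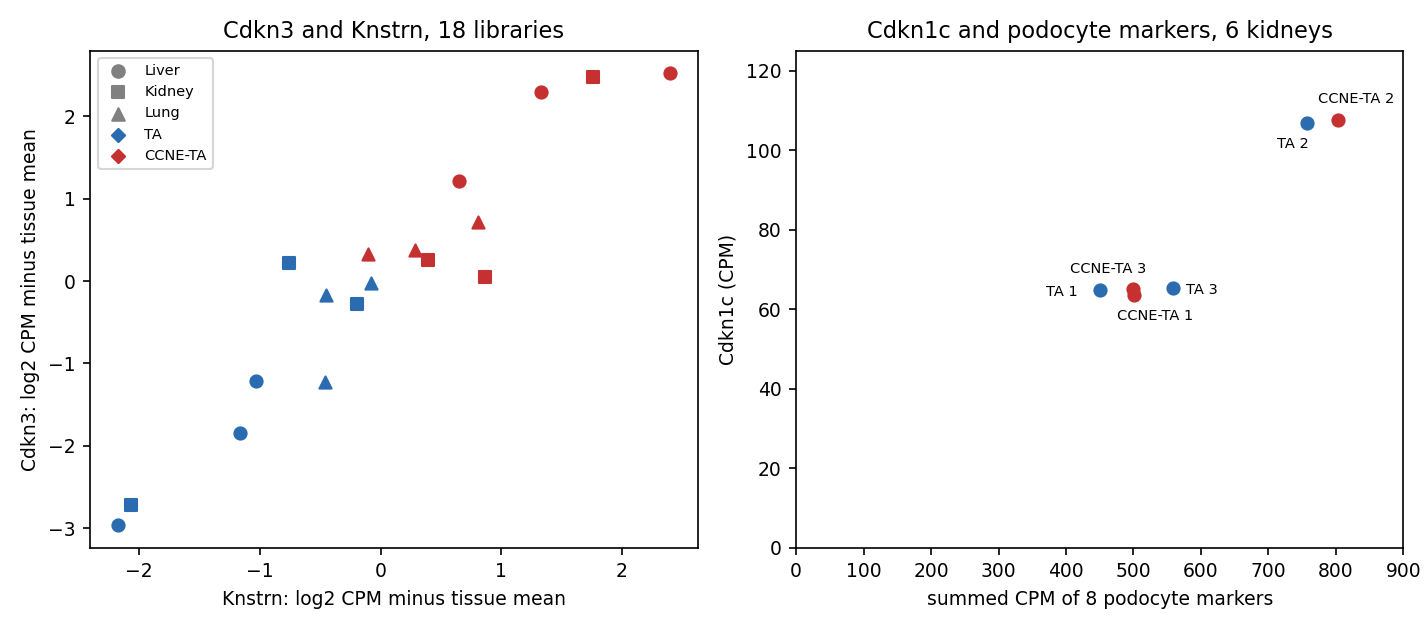
Left, log2 CPM of Cdkn3 against that of Knstrn, each minus its tissue mean, in 18 libraries (circle liver, square kidney, triangle lung; blue TA, red CCNE-TA), with r = 0.947. Right, Cdkn1c in CPM against the summed CPM of 8 podocyte markers in 6 kidneys; the libraries numbered 2 stand apart at 804 and 757 CPM.

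The partners and regulators of these genes were counted list by list, and the medians are log2 fold changes in liver, where the median of all tested genes was 0.02. The counts are to be read against the 13.7% of all genes tested in liver that were called higher and the 14.8% called lower. Of 8 genes for CDK4, CDK6, the D cyclins and the RB family, 1 rose and 3 fell (median 0.05). Those that fell were Rbl2 (-1.43 ± 0.18 SE), which encodes the RB relative p130, Ccnd2 (-1.80 ± 0.37), which encodes cyclin D2, and Cdk6 (-1.15 ± 0.34). Of 5 genes for CDK2 and CDK1, the substrates of Cdkn3, and for the E and A2 cyclins, 3 rose, namely the transgene Ccne1, Cdk1 (3.09 ± 0.59) and Ccna2 (2.08 ± 0.54). The rise of Ccne1 was set by the design, and Cdk1 is counted again among the mitotic genes below. Cdk2 had 0.30 ± 0.30 with an edgeR adjusted p of 0.472.

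Both CIP/KIP relatives of Cdkn1c rose in liver in edgeR. Cdkn1a, for p21, measured 105, 156 and 51.0 CPM in CCNE-TA livers 1, 2 and 3, against 22.7, 11.3 and 2.62 CPM with TA (log2 fold change 3.09 ± 0.84, adjusted p = 0.0416). Cdkn1b, for p27, rose by 0.57 ± 0.17 (adjusted p = 0.0374). As with Cdkn2c and Cdkn1c, Cdkn1a was within each genotype higher in the livers with Xist above 100 CPM. Unlike those genes, Cdkn1a was highest in CCNE-TA 2.

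Of 10 genes around ARF and p53, which include regulators of Cdkn2a as well as genes downstream of it, 3 rose and 2 fell (median 0.40). Trp53 rose by 0.77 ± 0.17, while Zbtb7a, a repressor of the ARF promoter, had -0.97 ± 0.23 and Usp7, a deubiquitinase of the p53 pathway, -0.60 ± 0.16. Of 25 tested Polycomb genes and other regulators of the INK4 locus, 5 rose and 3 fell (median 0.01), a called share near that of all genes. Id1, an inhibitor of basic helix-loop-helix factors, rose by 2.36 ± 0.27, and the Polycomb genes Ring1 and Cbx6 by 0.81 ± 0.19 and 0.89 ± 0.21. Those that fell were the Polycomb genes Suz12 (-0.58 ± 0.15) and Eed (-0.64 ± 0.19), and Ets1 (-0.83 ± 0.22).

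TGF-beta signalling induces Cdkn2b in many cells. Of 17 genes of that list 0 rose and 5 fell in liver (median -0.44), with Foxo3 at -2.82 ± 0.33, Smad4 at -1.13 ± 0.18 and Smad2 at -1.11 ± 0.21. Of 28 tested genes of senescence and its secretory phenotype, 9 rose and 2 fell (median 0.90). Spp1, the osteopontin gene, rose by 2.58 ± 0.22 and Tnfrsf10b, a death receptor gene, by 2.67 ± 0.35, while Hgf, the hepatocyte growth factor gene, had -2.14 ± 0.29. Spp1 also stands in the bile duct list. In kidney and lung edgeR called 0 genes of this list, with 3 in each at an unadjusted p of 0.05, and DESeq2 and limma-voom called 0 after adjustment; the medians were 0.60 and 0.27.

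Of 27 mitotic genes and regulators of such genes, the group that Cdkn3 is known to accompany in dividing cells, 20 rose and 0 fell in liver (median 2.19). Ccnb2 rose by 3.16 ± 0.40, Ube2c by 4.18 ± 0.56 and Mki67 by 2.59 ± 0.42. In kidney and lung edgeR called 0 of the 27 after adjustment and 14 in each at an unadjusted p of 0.05, all 14 higher. DESeq2 called 10 in kidney and 2 in lung after adjustment and limma-voom 0 in both. The medians were 1.30 and 0.89, where the medians of all genes were 0.0039 and 0.016. Cdkn3 had 1.91 in kidney, or 0.67 without CCNE-TA 1, and 0.90 in lung, and was called in neither tissue.

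The imprinted neighbourhood of Cdkn1c was examined too. Of 13 tested genes of its cluster on distal chromosome 7, 6 rose and 0 fell in liver (median 0.77), with Igf2 at 3.21 ± 0.39 and Slc22a18 at 1.23 ± 0.25. Phlda2 was called as well, at 1.63 ± 1.73 CPM in CCNE-TA livers and 0.0612 ± 0.0493 CPM in TA livers (SD, n = 3). Of 16 tested members of the wider imprinted gene network, 4 rose and 0 fell (median 0.75). Those that rose included Gnas (1.30 ± 0.26) and Dlk1, at 2.77 ± 1.87 CPM against 0.0582 ± 0.00495 CPM (SD, n = 3). Igf2 and H19 stand in both lists, so the counts are not independent. In the TA livers Phlda2 and Dlk1 were about as low as 3 counts per library, which are 0.0478 to 0.0853 CPM there. They passed the filter through the CCNE-TA libraries, and no fold is given for them. Phlda2 is among the genes counted as rising in the cluster, and Dlk1 among those in the network. In kidney and lung 0 genes of both lists were called, and 0 at an unadjusted p of 0.05, in edgeR, DESeq2 and limma-voom.

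Genes within 100 kb of Cdkn1c, Cdkn2c, Cdkn3 and Cdkn2a were then read on their own. Around Cdkn1c 3 of 5 tested genes rose in liver, Slc22a18, Phlda2 and Cars (0.77 ± 0.17), where 13.7% of all tested genes were called higher. Phlda2 is among these 3, but it passed the filter through the CCNE-TA libraries, so no conclusion is drawn from the count. Beside Cdkn2c, Faf1 fell, with -0.66 ± 0.16 with an edgeR adjusted p of 0.0182, opposite in sign to Cdkn2c. The 3 genes around Cdkn3 were not called, with Cnih1 at -0.82 ± 0.41, Gmfb at -0.40 ± 0.18 and Cgrrf1 at 0.11 ± 0.16 (edgeR adjusted p of 0.164, 0.116 and 0.620). Mtap, within 100 kb of Cdkn2a, had a log2 fold change of -0.16 ± 0.20.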

How the data were processed

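Whole-tissue RNA of liver, kidney and lung had been sequenced in 18 libraries, 3 per tissue and genotype. The authors deposited raw counts, with 1 whole number per gene symbol and library and no normalization. Per the submitters' processing notes, TopHat2 2.0.14, Bowtie2 2.2.6, featureCounts 1.4.6 and the build mm10 were used. The handling of reads with several alignments is not given in the sources used here. Of 24062 symbols, 22750 were found in GENCODE M21 and 922 by a RefSeq synonym, which gave the lengths of the merged exons. The TruSeq kit, per the labels' protocols, does not mark the strand.

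Each tissue was fitted alone with edgeR 4.0.16 in R 4.3.3 (filterByExpr, TMM scaling, robust quasi-likelihood F test, Benjamini-Hochberg adjustment over all tested genes, threshold 0.05). Differences between tissues came from 1 fit of all 18 libraries. SE is the log2 fold change divided by the square root of F. A count of 3 was the floor, 0.0188 to 0.137 CPM, which covers counting error only. Single values were compared by exact permutation tests. The named genes were all 6 members, Ccne1, Cdkn1a and Cdkn1b, and up to 3 genes of each list in order of p. For the Polycomb list the genes that fell are named too. Also named are the 3 genes nearest to each member by Pearson correlation of log2 CPM (prior count 2, mean log2 CPM of at least 1). The members and the gene lists were chosen with earlier results of these data known. A list of neighbours held genes from elsewhere in the genome and was replaced by a distance of 100 kb. The genes around Cdkn2d are not reported here. Alternatives were DESeq2 1.42.0, limma-voom (limma 3.58.1), other scalings and filters, a replicate block, Xist as a covariate, length and GC offsets (4 spline degrees of freedom), 1 fit for all tissues, a term for liver TA 2 and TA 3, and leaving out libraries. The code was tested on simulated data.

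Kidney libraries that share a number deviated together (correlations across genes of 0.31, 0.49 and 0.34), while those of liver (0.20, -0.0018 and 0.083) did not all do so. In lung the correlations of the same number were all negative (-0.48, -0.10 and -0.59). Those between different lung numbers ran from -0.45 to 0.58. The labels do not state a pairing by number. Promoter windows of 5 of the 6 members were taken from RefSeq on GRCm38.p6.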

Additional observations from a re-analysis of the deposited data

Results flagged for a closer look

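The genotype effect on Cdkn1c was called as different between liver and lung in the main fit. Its log2 fold change in liver exceeded that in lung by 1.63 ± 0.51 (SE) in the interaction test of edgeR, with an adjusted p of 0.0470. In liver all 3 CCNE-TA libraries were above all TA libraries. In lung CCNE-TA 1 was the lowest library, and without it the difference was 1.30. Over 26 alternatives the adjusted p ranged from 0.0133 to 0.169, and the gene was called in 10 of them. The genotype effect on Ccne1 itself was also larger in liver than in lung, by 2.22 ± 0.62 (SE) with an edgeR adjusted p of 0.0316. The part of Ccne1 in the Cdkn1c difference was not tested.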

How the results depend on the processing

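The number of the 6 genes called in liver was 3 in the main fit and 2 with Xist as a covariate or with length and GC correction, and 0 with a term for TA 2 and TA 3, which leaves 1 control library as reference. Leaving out 1 liver library gave 1 to 3 calls, with 1 call without CCNE-TA 1, TA 2 or TA 3. In kidney and lung the number was 0 under each alternative. For liver minus kidney (0 calls) DESeq2 gave 2 and upper quartile scaling 1, and leaving out a library 0 to 1. For liver minus lung (1 call) DESeq2 gave 3, RLE and upper quartile scaling 2 each, limma-voom, no filter on low counts and Xist as a covariate 0, and leaving out a library 0 to 3. For TA liver against TA lung leaving out a library gave 3 to 5 calls. The causes were not tested.

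Fold changes near 0 turned sign. For Cdkn2d in liver the log2 value was -0.20 with length and GC correction and -0.21 with that and the block. For Cdkn1c in kidney it was 0.0013 with upper quartile scaling and 0.028 with Xist as a covariate, and in lung 0.15 without CCNE-TA 1 and TA 3. For Cdkn2a in lung it was 0.0058 with Xist, and Cdkn3 in TA kidney against TA lung had -0.081 with limma-voom. Leaving out 1 library gave -0.064 to 0.19 for Cdkn2d and -0.30 to 0.28 for Cdkn1c in kidney, -0.65 to 0.21 for Cdkn2a, -0.0056 to 0.31 for Cdkn2c and -0.33 to 0.19 for Cdkn1c in lung, and -0.22 to 0.77 for Cdkn3 in TA kidney against TA lung. Upper quartile scaling moved the median of all liver genes from 0.024 to 0.21.

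With the replicate number as a block, 3 members were called in liver, 0 in kidney and 0 in lung, as without it, and the interaction calls were 0, 1 and 0. Cdkn2a in TA liver against TA lung then had an adjusted p of 0.0522 in edgeR. Its lung genotype difference was 0.020 with the block, and 0.10 with the block and the length and GC correction. The labels give no more than a number in any tissue, and same-numbered libraries all deviated together in kidney alone.

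Low counts limit Cdkn2a and Cdkn2b in liver and Cdkn2a in kidney, with 16 counts or fewer per library. They also limit Cdkn3 in the TA livers, with 14, 2 and 5 counts.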
